A study of Mus musculus with 8 samples.

Results

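Paneth cells are known above all for their α-defensins, and the genes described here are 10 other products ascribed to them: Lyz1, Ang4, Mmp7, Itln1, Mptx1, Mptx2, Clps, Rnase1, Pnliprp2 and Nupr1. They were taken by symbol from the gene table of the deposited count matrices, which lists 27998 genes, and all 10 were present. The transcriptomes are of single EpCAM+ DAPI- epithelial cells sorted from small intestinal crypts of adult female C57BL/6 mice, read with a droplet method that tags the 3-prime end of transcripts. The control group, called WT in the labels, consisted of H11 i.enh mice, in which a cassette of the Shh promoter, the core of the enhancer ieCtnnb1 and LacZ-iCre sits at the H11 locus. The group called KO consisted of Ctnnb1 Δi.enh mice, in which ieCtnnb1, an enhancer upstream of the β-catenin gene Ctnnb1, was deleted on both alleles. No source used here states that the KO mice carried the cassette, so the deletion and the cassette cannot be told apart. Cells of several animals were pooled, each group was deposited as 1 matrix, and no cell could be tied to a labelled sample or animal, so there is 1 value per group and no test between groups. Intervals below are 95% intervals that cover counting error only.

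Paneth cells sit at the base of small intestinal crypts between the stem cells and release dense granules into the crypt lumen. The granules hold α-defensins, lysozyme, ribonucleases, lectins and the protease that trims the defensin precursors, and together they keep bacteria away from the crypt base. Wnt signals through β-catenin and TCF factors are known to promote Paneth cell maturation, and the α-defensin genes and Mmp7 are textbook TCF targets. A member of the group that acts in the nucleus rather than in the granule is Nupr1, a small stress-induced chromatin protein.

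A pair of members alike in sequence differed widely in level. Mptx1 and Mptx2 encode mucosal pentraxins, secreted relatives of C-reactive protein, and both lie on chromosome 1 of build GRCm38, Mptx1 at chr1:174330518-174332873 on the plus strand and Mptx2 at chr1:173274382-173277777 on the minus strand. Their upstream sequences are printed here because Paneth cells held 12448 CPM of Mptx2 in WT and 3.18 CPM of Mptx1. CPM is the number of UMIs (unique molecular identifiers, each counting 1 captured transcript) per 1000000 UMIs of the cells in question. The 250 bases before each annotated start are given from RefSeq (GRCm38.p6), chr1:174330268-174330517 for Mptx1 and chr1:173277757-173278006 for Mptx2, 5′ to 3′ on the strand of the gene. Capitals mark TATAA where it begins 60 to 15 bases before the start on the strand of the gene, and the TCF-type letters ATCAAAG or TTCAAAG or AACAAAG or TACAAAG, which share the ending CAAAG, on either strand.
Mptx1: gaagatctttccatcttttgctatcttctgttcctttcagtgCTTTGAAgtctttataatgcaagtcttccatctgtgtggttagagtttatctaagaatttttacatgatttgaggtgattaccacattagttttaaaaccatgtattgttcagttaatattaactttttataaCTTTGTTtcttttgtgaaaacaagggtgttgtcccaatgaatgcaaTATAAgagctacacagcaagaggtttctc
Mptx2: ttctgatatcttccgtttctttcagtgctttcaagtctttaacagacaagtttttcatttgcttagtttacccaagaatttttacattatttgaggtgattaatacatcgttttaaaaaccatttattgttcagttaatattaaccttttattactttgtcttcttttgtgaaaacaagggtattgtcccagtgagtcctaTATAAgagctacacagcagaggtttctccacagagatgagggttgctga
Over windows of 300 bases around the starts, 251 of 277 aligned bases were the same (90.6%), with 10 further bases in gaps, and the annotated starts stood 21 bases apart in the alignment. The gene span of Mptx2 given above ends at 173277777, inside its printed window. TATAA lay at -29 in Mptx1 and at -49 in Mptx2, each counted from its own RefSeq start, in matching stretches of both sequences. This element was found at those distances in 5.14% of the 32851 mouse promoters in the table. Mptx1 held TTCAAAG at -208 and AACAAAG at -75, both on the opposite strand, and Mptx2 held none of the 4 TCF-type strings. At least 1 of the 4 was found in 14.8% of all promoters. Of the 9 members with a promoter entry, the other holders of TATAA were Mmp7 (-26) and Nupr1 (-49), and the other holder of a TCF-type string was Mmp7, with ATCAAAG at -247 in the window of its second annotated start and none in that of its first. The window of the second Mmp7 start, chr9:7692091-7692340, lies inside the gene span of Mmp7, which begins at 7692090. Its ATCAAAG is therefore not upstream of that gene span. All matches given here describe letters and show no binding.

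After removal of barcodes with under 200 genes or over 30% mitochondrial UMIs, 13095 of 15987 WT and 8658 of 12763 KO barcodes were kept, out of totals of 134876816 and 123794575 UMIs. Paneth cells were kept cells with at least 20% of their UMIs from genes whose symbol starts with Defa (13 genes). They made up 4893 WT cells (37.4%, 36.5% to 38.2%) and 1943 KO cells (22.4%, 21.6% to 23.3%). Of these, 1604 WT (32.8%) and 919 KO (47.3%) had under 5000 UMIs, but they held only 2.72% and 2.16% of the Paneth UMIs. Barcodes with under 200 genes carried 15.1% (WT) and 11.2% (KO) Defa UMIs, and whether the shallow Paneth barcodes are whole cells was not tested. With them left out, the KO to WT log2 ratios given below moved by at most 0.0071, for Mptx1. Of 23 other genes of Paneth cell biology that the rule did not use, 10 were higher and 13 lower in Paneth cells than in other kept cells, in WT and in KO alike. In WT the higher ones included Cd24a (401 against 192 CPM), Wnt3 (34.3 against 8.15), Habp2 (67.7 against 16.6) and Slc30a2 (14.0 against 10.8), and the lower ones Sox9 (39.0 against 53.1), Xbp1 (70.1 against 146), Atoh1 (26.4 against 35.0), Fzd5 (7.29 against 61.7) and Agr2 (1402 against 3887). These CPM are over all UMIs, of which Defa genes held 40.6% in WT Paneth cells and 3.99% in other kept cells (38.9% and 2.91% in KO). This lowers the CPM of every other gene in Paneth cells. The order for Sox9 and Atoh1, and so the count of 13, depends on the total used. The gene next to the deleted enhancer, Ctnnb1, stood at 57.6 CPM in WT and 37.8 in KO Paneth cells (log2 ratio -0.61, -0.69 to -0.53). The matrices shared 57 barcodes, 3 of them Paneth cells in both. In pooled cells, fewer expressing cells and less RNA per cell cannot be told apart in a summed level.

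The 10 genes together supplied 11.4% of all UMIs of WT Paneth cells and 10.2% of those of KO Paneth cells. Because each UMI is a tag from a transcript end, the CPM of different genes can be set side by side without division by transcript length. The order ran from Lyz1, the 7th most abundant gene of WT Paneth cells, to Mptx1, which ranked 6906th. Lyz1 and Itln1 alone made up most of the total.

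Lyz1 (chr10:117287797-117292868) encodes the lysozyme of Paneth granules, which cuts the peptidoglycan of bacterial walls. It was the most abundant member in both groups, at 43552 CPM (43507 to 43598) in WT and 41631 CPM (41573 to 41689) in KO Paneth cells, a mean of 712 and 1023 UMIs per cell. Across the Defa limit of the Paneth rule it was 29035 CPM in WT cells with 15 to 20% Defa UMIs and 35155 CPM in those with 20 to 25%. Of the 50-base words in the last 500 bases of its transcript, 17.7% also occur in Lyz2, so part of its reads may have been split or dropped in the authors' counting. Itln1 (chr1:171518122-171535294) encodes intelectin, a lectin that binds microbial sugars. It followed Lyz1 at 38032 CPM (37989 to 38075) in WT and 30020 CPM (29970 to 30069) in KO. Ang4 (chr14:51763878-51773590) encodes a microbicidal ribonuclease of the angiogenin family. Its level was 11522 CPM (11498 to 11545) in WT and 9925 CPM (9897 to 9953) in KO, and 6.87% of its end words also occur in Ang2 or Ang5. Mptx2 reached a similar level, with 12448 CPM (12424 to 12472) in WT and 12687 CPM (12655 to 12719) in KO, whereas Mptx1 had 3.18 CPM (2.80 to 3.59) and 4.80 CPM (4.20 to 5.46). Each Mptx gene shared 2.44% of its end words with the other, so most tags could be assigned. Mmp7 (chr9:7692090-7699585), the matrix metalloprotease that activates the α-defensin precursors, had 2565 CPM (2554 to 2576) in WT and 2256 CPM (2243 to 2270) in KO.

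These next 3 members are better known from the pancreas. Clps (chr17:28558149-28560766) encodes colipase, the cofactor that holds pancreatic lipase on fat droplets, and stood at 3732 CPM (3719 to 3746) in WT and 3673 CPM (3656 to 3691) in KO. Pnliprp2 (chr19:58759719-58777534), a lipase related to the pancreatic enzyme that also cleaves galactolipids, had 830 CPM (824 to 837) in WT and 608 CPM (601 to 615) in KO. Rnase1 (chr14:51144998-51146785), a secreted ribonuclease of the pancreatic type, had 211 CPM (208 to 214) in WT and 147 CPM (143 to 150) in KO. Both groups thus kept the order colipase, lipase, ribonuclease. Nupr1 (chr7:126623249-126630861) had 636 CPM (631 to 642) in WT and 608 CPM (601 to 615) in KO. It lay within counting error of Pnliprp2 in KO, so these neighbours in the order could not be ranked there. In WT, Mptx2 stood above Ang4 by more than counting error, while the levels of single cells overlapped widely.

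**Figure D1:**
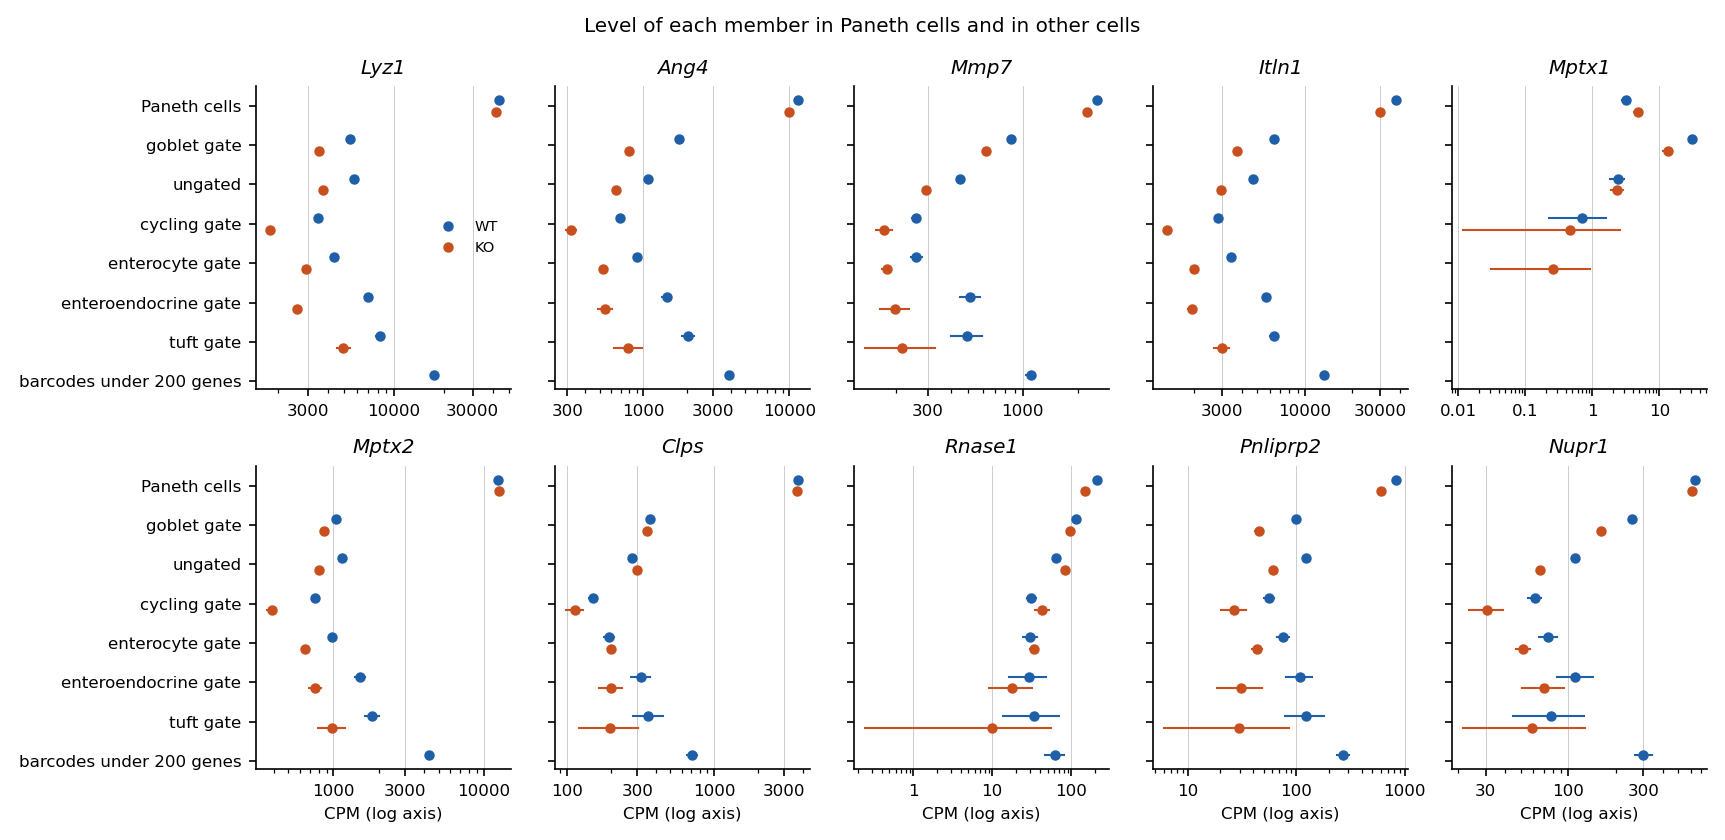
Level of each of the 10 genes in CPM (log axis, with its own range in each panel) in Paneth cells, in other kept cells split by marker gates and in WT barcodes under 200 genes, with 95% Poisson intervals as lines. Points of classes with 0 UMIs are left out; in 9 panels Paneth cells lie to the right of every other class, and in that of Mptx1 the goblet gate does, at 30.8 CPM in WT and 13.2 in KO.

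Transcripts of the members were also counted in cells of other kinds. Kept cells under the Defa limit were split by gates on summed marker UMIs, and such a gate is a range of a score, not a cell type. Lyz1 UMIs were present in 100% of the 79 WT cells of the tuft gate (median 1692 UMIs), a class that should lack the gene, and in 100% of WT Paneth cells (median 17569 UMIs). A share of cells with a UMI therefore carried no information for Lyz1, and the level is the measure to read. In the tuft gate the level was 8190 CPM (7803 to 8591) in WT and 4942 CPM (4519 to 5394) in KO, against 43552 and 41631 CPM in Paneth cells. For Rnase1 the shares did differ. After thinning to 1000 UMIs, the expected share of WT cells with a UMI was 17.5% (4054 Paneth cells) and 5.46% (76 tuft-gate cells). Without thinning the shares were 53.5% and 8.86%. In KO the thinned shares were 12.0% of 1341 Paneth cells and 2.47% of 26 tuft-gate cells. Shallower cells were left out, so that 4054 of 4893 WT and 1341 of 1943 KO Paneth cells entered. The tuft gate held only 7 Rnase1 UMIs in WT and 1 in KO. In WT the Rnase1 level was 34.1 CPM in the tuft gate and 211 CPM in Paneth cells. Per 1000 Defa UMIs it was 0.53 and 0.52, so these shares do not show that Rnase1 is more confined to Paneth cells than Lyz1.

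Each gene was also set against the Defa UMIs of the same cells. The Defa share defines Paneth cells and all other classes, so the choice of cells enters these ratios, and they are given as a description. The ratio also varied among Paneth cells, since those of WT with under 5000 UMIs had 1.87 times the ratio of all WT Paneth cells for Nupr1, 2.04 times for Pnliprp2 and 1.40 times for Mmp7. In WT Paneth cells there were 107 Lyz1 UMIs for every 1000 Defa UMIs, and in the goblet gate there were 123. Ang4, Mptx2, Clps and Pnliprp2 were likewise within 1.5-fold of their Paneth ratio in goblet-gate cells of both groups. Mmp7 was not, with 6.32 UMIs per 1000 Defa UMIs in WT Paneth cells and 19.6 in the WT goblet gate, and 5.80 and 20.5 in KO. Nupr1 had 1.57 and 5.79 in WT and 1.56 and 5.27 in KO. Rnase1 had 0.52 and 2.61 in WT and 0.38 and 3.11 in KO, and Itln1 had 93.8 and 145 in WT and 77.2 and 121 in KO. The difference was not particular to the goblet gate. In ungated cells Mmp7, Mptx1 and Rnase1 were past 1.5-fold above their Paneth ratio in both groups and Nupr1 was in WT. For KO Rnase1 the fold was 7.31 in ungated, 6.94 in cycling-gate and 3.33 in enterocyte-gate cells, beside 8.23 in the goblet gate. Whether these UMIs are free RNA was not tested. The goblet gate held 1791 WT and 779 KO barcodes, of which 103 and 87 lay near the limit of the gate.

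Among the marker gates and ungated cells, Mptx1 was the only member with a higher level than in Paneth cells, in the goblet gate alone. Cut by Defa share instead, cells with 15 to 20% Defa UMIs held more Rnase1 than Paneth cells. They had 330 CPM in WT and 300 CPM in KO, against 211 and 147 CPM. Of Mptx1, the goblet gate held 30.8 CPM (27.6 to 34.4) in WT and 13.2 CPM (11.3 to 15.3) in KO, against 3.18 and 4.80 CPM in Paneth cells. Ungated cells held 2.37 CPM of Mptx1 in WT and 2.32 CPM in KO, below Paneth cells of the same group. Over all other kept cells together the level was 7.80 CPM in WT, above that of Paneth cells, and 4.01 CPM in KO, below it. Both KO orders turned on the 1 KO Paneth cell with most Mptx1 UMIs. Without that cell KO Paneth cells held 2.24 CPM, below ungated and all other kept cells. The WT tuft, enteroendocrine and enterocyte gates held 0 Mptx1 UMIs, which allows up to 14.6, 5.76 and 0.961 CPM. Of the 82 WT cells outside the Paneth class with most Mptx1 UMIs, 62 lay in the goblet gate, and these 82 cells held 84.2% of its UMIs there. In KO, 42 of 67 such cells lay in the goblet gate and the 67 held 88.9%. Rnase1 also gathered in a few cells, the top 82 WT cells holding 41.9% and the top 67 KO cells 46.7% of its UMIs outside Paneth cells. Most of these lay in no gate, 45 in WT and 50 in KO, and 30 and 16 lay in the goblet gate.

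**Figure D2:**
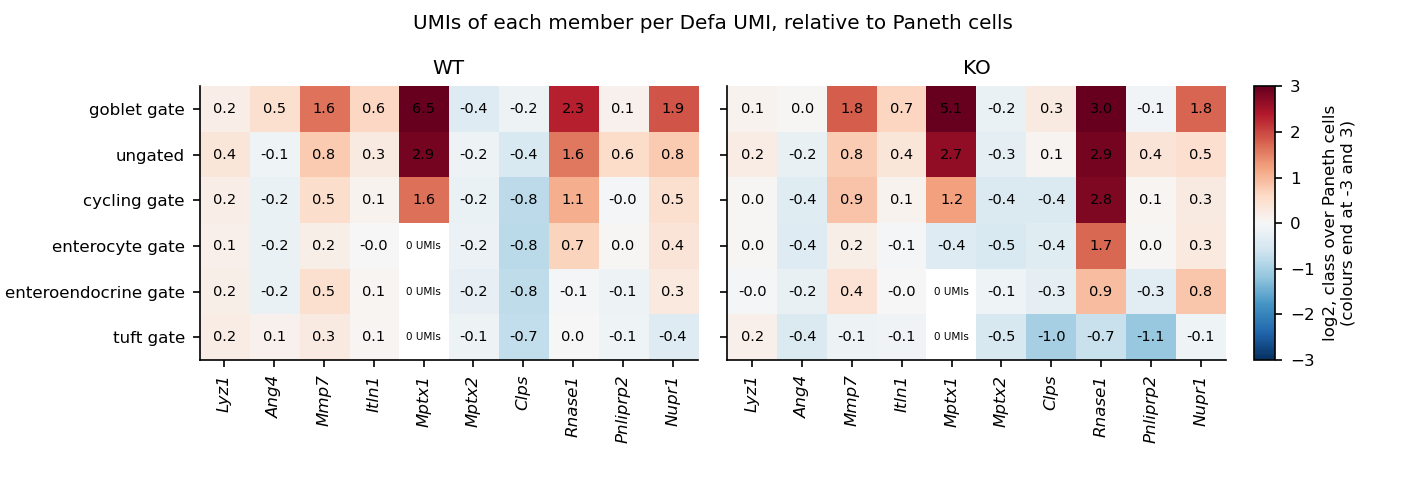
UMIs of each gene per Defa UMI in 6 classes of other cells relative to Paneth cells of the same group, as log2 (numbers in the cells; colours end at -3 and 3). Lyz1, Ang4, Mptx2 and Pnliprp2 stay pale in most classes, while Mmp7, Mptx1, Rnase1 and Nupr1 are red in the goblet gate of both WT and KO.

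How evenly Paneth cells shared each product was read over the 3289 WT and 1024 KO Paneth cells with at least 5000 UMIs (median 23290 and 46319 UMIs). Itln1 was the most even. Its 10th percentile, median and 90th percentile were 25060, 37914 and 55333 CPM in WT, a spread of 2.21-fold, and 19564, 30008 and 41507 CPM in KO. Mmp7 was close to it, with 1602, 2504 and 3808 CPM in WT. Clps, Ang4 and Lyz1 spread by 2.90-fold, 3.49-fold and 3.71-fold in WT. Mptx2 was far more uneven than these, at 1301, 9728 and 25928 CPM in WT and 1639, 10830 and 24996 CPM in KO, a spread of 19.9-fold and 15.2-fold. The median WT cell held 214 Mptx2 UMIs and the median KO cell 454.5, and the lowest cell had 177 CPM in WT and 193 CPM in KO. Rnase1 had a 10th percentile of 0 CPM in both groups, while its 90th percentile was 783 CPM in WT and 529 CPM in KO.

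The level of Rnase1 differed with the defensins that a cell made. Paneth cells were divided into those with more UMIs of Defa21 and Gm15308 (3799 WT, 1654 KO) and those with more of Defa23 and Gm14851 (1093 WT, 286 KO). Rnase1 stood at 106 CPM in the first and 528 CPM in the second division of WT cells, and thus 2.32 (2.28 to 2.37) higher on the log2 scale, and at 58.4 and 429 CPM in KO cells (2.88, 2.80 to 2.95). Its spread stayed wide inside each division. Over WT cells of at least 5000 UMIs the 10th and 90th percentiles were 0 and 299 CPM in the first and 131 and 1111 CPM in the second. Clps was 3177 and 5411 CPM in WT (0.77, 0.76 to 0.78) and 3150 and 5343 CPM in KO (0.76, 0.75 to 0.78). Nupr1 went the other way, with 692 and 469 CPM in WT (-0.56, -0.59 to -0.53) and 691 and 343 CPM in KO (-1.01, -1.06 to -0.96). The same contrast was thus present in both pools. Past 1.5-fold in WT, 2 members were higher in the Defa23 division, Clps and Rnase1, where 2.36% of 10541 genes were, and 1 was lower, Mptx1, where 2.68% were. In KO 3 were higher (6.65% of 9318 genes), namely Clps, Rnase1 and Mptx1, and 1 was lower, Nupr1 (2.72%). Mptx1 pointed in opposite directions in the pools, -0.91 in WT and 1.94 in KO, and its KO value rested on a single cell described further on.

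The other members differed little between the divisions. Itln1 was 35551 and 45536 CPM in WT (log2 ratio 0.36) and 28922 and 33520 CPM in KO (0.21). Lyz1, Ang4, Mmp7 and Mptx2 lay between -0.11 and 0.20 in WT and between -0.09 and 0.04 in KO, and Pnliprp2 at 0.33 and 0.19. The medians of all genes were 0.00 and 0.14. The Defa23 division also had a lower Defa share in WT, 34.9% against 42.4% of UMIs, and Rnase1 and Nupr1 moved with that share as well. From cells with 20 to 30% Defa UMIs to those with at least 50%, WT Rnase1 went from 308 to 34.1 CPM and WT Nupr1 from 486 to 869 CPM. The part of the Defa share in the contrast of the divisions was not tested.

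**Figure D3:**
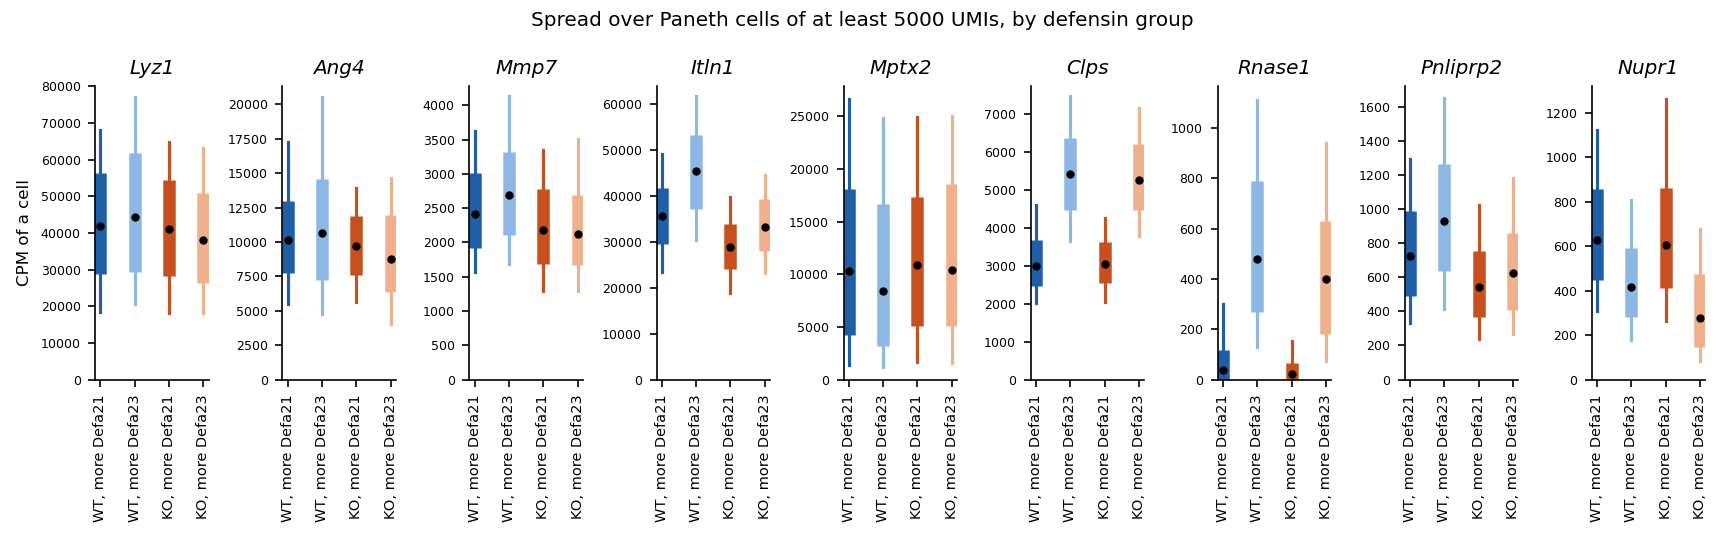
CPM of single Paneth cells of at least 5000 UMIs by group and by the defensin pair with more UMIs (dot, median; thick bar, 25th to 75th percentile; thin line, 10th to 90th percentile; each panel with its own axis from 0). Cells with more Defa23 have the higher Clps and Rnase1 in both groups, with WT Rnase1 medians of 39.2 and 478 CPM, and the lower Nupr1.

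Likeness of pattern was measured by Spearman's rho over the same cells, each thinned to 5000 UMIs, with every gene as a share of the UMIs that are not Defa. Such values share library, depth and a common total, and they are given as descriptions. For each member, the 3 genes with the highest rho were taken from 296 ranked genes, by the lower value of WT and KO. Clps was most like AY761184 (0.61 in WT, 0.57 in KO), Gm14851 (0.52, 0.54) and Gm15284 (0.51, 0.46). Rnase1 was most like AY761184 (0.45, 0.40), Clps (0.44, 0.32) and Klk1 (0.21, 0.20), a kallikrein protease. Nupr1 was most like Gm21002 (0.39, 0.46), Gm15293 (0.37, 0.40) and Gm15308 (0.35, 0.42). All of the named Gm and AY genes lie on chromosome 8 between the outermost of the 13 Defa genes, from 21025545 to 21735471. The nearest genes of Clps and Nupr1 thus lay within that span, under symbols that the Paneth rule did not use. Gm14851 and Gm15308 belong to the defensin pairs that divided the Paneth cells above. UMIs of these Gm and AY genes are not in the Defa share and remain in the total that is not Defa.

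Ang4 was most like Gm14850 (0.45, 0.59), Gm15292 (0.36, 0.39) and Itln1 (0.35, 0.45). Mmp7 was most like Itln1 (0.39, 0.43), then Gm7861 (0.30, 0.40) and Gm14850 (0.26, 0.39), and Itln1 was in turn most like Mmp7, Ang4 and Gm14850 (0.33, 0.39). For Lyz1 the values were lower, with Itln1 (0.28, 0.34), Gm7861 (0.24, 0.41) and Nupr1 (0.19, 0.34). For Pnliprp2 they were Itln1 (0.32, 0.31), Ang4 (0.21, 0.25) and Gm7861 (0.19, 0.22). Mptx2 had the weakest neighbours, Gm15293 (0.24, 0.24), Gm14850 (0.24, 0.29) and Ang4 (0.22, 0.34). Mptx1 was seen in too few cells to be ranked, and its rho with the other 9 lay between -0.07 and 0.04. Itln1 was among the nearest genes of Lyz1, Ang4, Mmp7 and Pnliprp2.

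**Figure D4:**
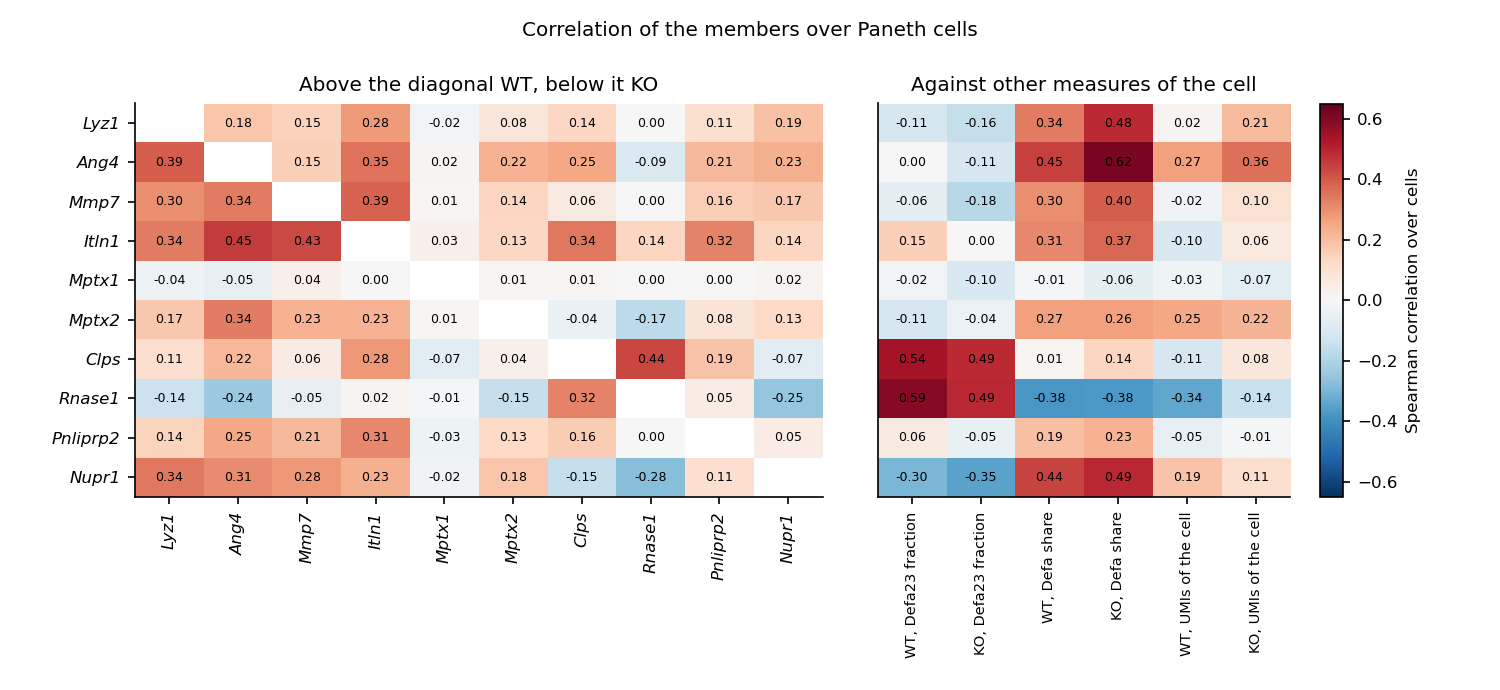
Spearman's rho over Paneth cells of at least 5000 UMIs (3289 WT, 1024 KO), between members on the left and, on the right, with the fraction of Defa23 and Gm14851 among the UMIs of both defensin pairs, with the Defa share and with the UMIs of the cell. Rnase1 and Clps have rho of 0.59 and 0.54 with the Defa23 fraction in WT and Nupr1 has -0.30, and Ang4 has the highest rho with the Defa share, 0.45 in WT and 0.62 in KO. Each gene is a share of the UMIs that are not Defa, so the Defa share enters both sides of that last rho, which is in part set by the calculation.

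Whether deletion of ieCtnnb1 went with other levels of these products was asked by setting KO against WT. The mean number of UMIs per Paneth cell was higher in KO for all 10 members, for example 312 against 203 for Mptx2 and 90.3 against 61.0 for Clps. Mean depth was higher in KO as well, with 47747271 UMIs in 1943 KO Paneth cells and 79977908 UMIs in 4893 WT ones. The median number of UMIs per Paneth cell was lower in KO for 9 of the 10, for example 72 against 141 for Ang4 and 41 against 76 for Mptx2. The median depth was also lower, 12767 against 17569 UMIs. As a share of the UMIs of Paneth cells, 8 of the 10 were lower in KO, with Mptx1 and Mptx2 as the exceptions, but of 21 other settings on the CPM scale the sign turned in 8 for Mptx2, 5 for Mptx1, 4 for Nupr1, 3 for Lyz1, 2 each for Mmp7 and Clps, and 1 each for Rnase1 and Pnliprp2. Ang4 and Itln1 kept theirs in all 21. Pnliprp2 was 830 CPM in WT and 608 CPM in KO (log2 ratio -0.45, -0.47 to -0.43). Rnase1 was 211 and 147 CPM (-0.52, -0.56 to -0.48), and Itln1 38032 and 30020 CPM (-0.341, -0.344 to -0.338). These 3 had the largest ratios below 0.

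The granule enzymes lay closer to 0. Lyz1 had a log2 ratio of -0.07 (-0.07 to -0.06), Ang4 of -0.22 (-0.22 to -0.21) and Mmp7 of -0.18 (-0.20 to -0.17). Clps (-0.02), Nupr1 (-0.07) and Mptx2 (0.03, 0.02 to 0.03) lay nearest to 0 beside Lyz1. The median of the 10 was -0.13, beside -0.17 for the 11096 genes with at least 50 UMIs. No member was 1.5-fold lower in KO, where 24.8% of all genes were, and 1 was 1.5-fold higher, Mptx1, where 11.1% were. The split of all genes depended on the scale, with 32.9% lower and 6.40% higher when genes above 1% of UMIs were left out of the total, 21.3% and 27.8% when every cell had equal weight, and 4.87% and 39.7% as mean UMIs per cell, at median log2 ratios of -0.31, 0.09 and 0.41. On those scales the median of the 10 was -0.26, -0.27 and 0.46. All 10 belong to the 25% of genes with the shortest summed exons (183 to 2708 bases), whose median log2 ratio was 0.28, beside -0.05, -0.30 and -0.56 in the following equal parts of the genes ordered by length. Relative to genes of like length the 10 thus stood lower than relative to all genes, and the part of length was not tested.

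Over all Paneth cells, the direction of Mptx1 turned on 1 KO cell. In WT, 254 UMIs were spread over 159 cells, the highest holding 13. In KO there were 229 UMIs in 56 cells, of which 122 were in a cell with 50218 UMIs and 24.6% Defa. Without the top cell of each matrix the levels were 3.01 CPM in WT and 2.24 CPM in KO, and the log2 ratio turned from 0.59 (0.33 to 0.86) to -0.43 (-0.77 to -0.09). The KO level in the Defa23 division went from 11.0 to 0.264 CPM without that cell.

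Depth and defensin make-up differed between the pools, so the ratios were also read within strata. Paneth cells with 5000 to 20000 UMIs (1122 WT, 89 KO), with 20000 to 40000 UMIs (1994 WT, 261 KO) and with more (173 WT, 674 KO) were compared, strata chosen after seeing the data. Ang4 had log2 ratios of -0.34, -0.59 and -0.10 in that order, and Itln1 of -0.25, -0.31 and -0.15, so both were below 0 in each. Every other member changed sign among the 3 strata. Lyz1 had -0.05, -0.24 and 0.08, Mmp7 0.14, -0.29 and 0.09, and Mptx2 0.26, -0.39 and 0.14. Pnliprp2 had 0.10, -0.48 and -0.21, and Nupr1 0.29, -0.41 and 0.09. Clps (-0.59, 0.21 and -0.07) and Rnase1 (-0.43, 0.91 and -0.44) were above 0 in the middle stratum and below 0 in the others. The Defa23 division, in which both genes are high, held 51.7% of WT and 16.9% of KO cells at 5000 to 20000 UMIs, 22.2% and 37.2% in the middle stratum, and 3.47% and 22.8% in the deepest. The part of that difference in the ratios was not tested. The medians of all genes were 0.27, 0.12 and -0.03. Mptx1 was 2.81 and 4.83 CPM in the middle stratum (0.78, 0.24 to 1.29), which does not hold the top KO cell, and rested on 149 WT and 40 KO UMIs, with 12 of the 40 in 1 cell. It was 1.86 and 4.92 CPM in the deepest stratum, and 1.32 and 1.66 CPM there without the top cell of each pool. At 5000 to 20000 UMIs KO had 2 Mptx1 UMIs. Within the Defa21 division Rnase1 was -0.86, and within the Defa23 division -0.30. Itln1 and Pnliprp2 were below 0 in both divisions, at -0.30 and -0.41 in the Defa21 division and -0.44 and -0.55 in the Defa23 division.

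**Figure D5:**
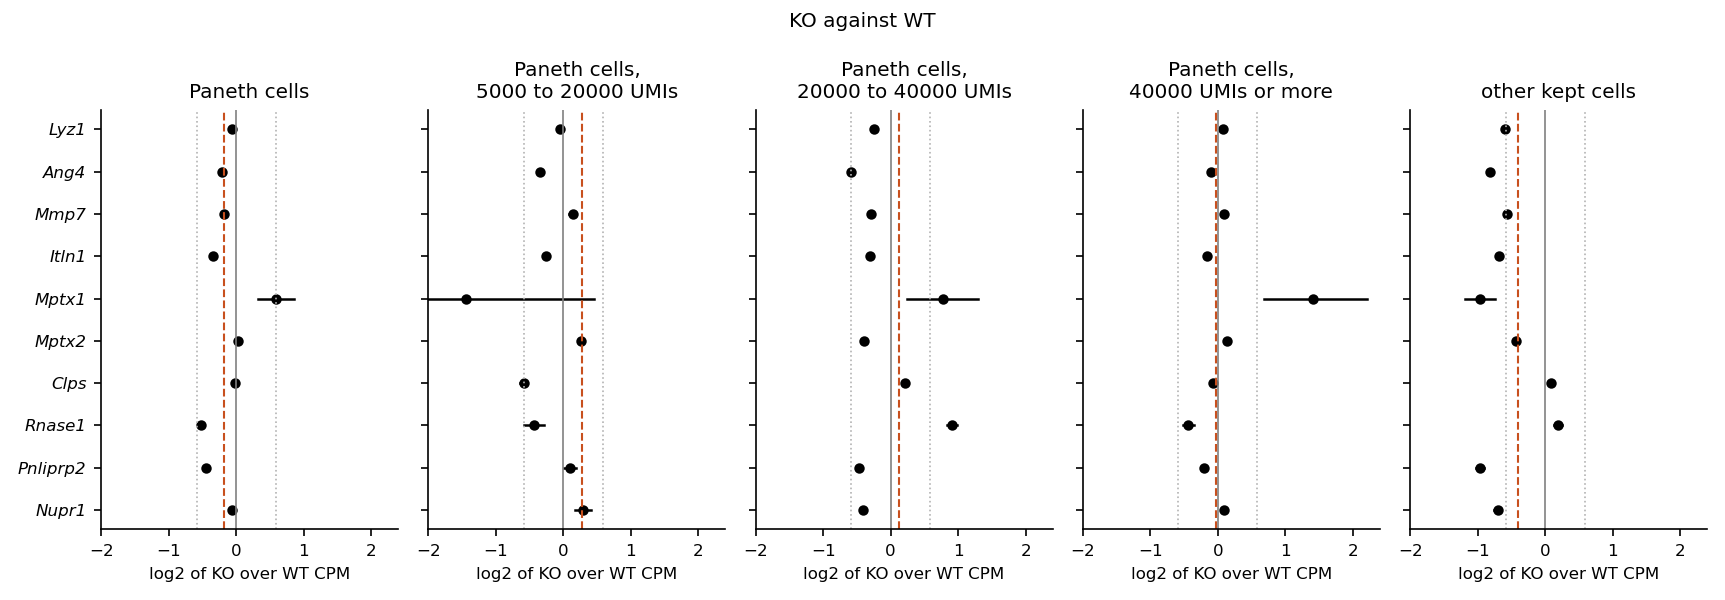
Log2 ratio of KO to WT CPM with 95% counting intervals (lines, often shorter than the dot) in Paneth cells, in 3 depth strata of them and in other kept cells. The dashed line is the median of all genes (-0.17, 0.27, 0.12, -0.03 and -0.41 from left to right) and the dotted lines mark 1.5-fold; the interval of Mptx1 at 5000 to 20000 UMIs runs past the axis to -4.52, and its point in the left panel falls below 0 without 1 KO cell.

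In other kept cells most members were lower in KO, along with the Defa UMIs. Lyz1 was 5286 CPM in WT and 3518 CPM in KO (log2 ratio -0.59, -0.60 to -0.58) and Ang4 was 1155 and 653 CPM (-0.82, -0.84 to -0.80). Pnliprp2 was 106 and 54.6 CPM (-0.96). In these cells 6 of the 10 were 1.5-fold lower, where 40% of 12322 genes were, and none was 1.5-fold higher, where 4.80% were. The Defa share of the same cells was 3.99% in WT and 2.91% in KO. The exceptions were Clps, 273 and 291 CPM (0.09, 0.06 to 0.12), and Rnase1, 67.5 and 77.1 CPM (0.19, 0.13 to 0.25). Over all kept cells 5 members were 1.5-fold lower (20.5% of 12767 genes) and none was higher (18.6%), with Lyz1 at 28602 and 19033 CPM, while the share of Paneth cells went from 37.4% to 22.4%.

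Genes related to the 10 by sequence or by role were read from lists in the same Paneth cells. Of 11 near relatives that the matrices list, 4 had at least 50 UMIs, and none of these was past 1.5-fold, where 24.8% of all genes were lower and 11.1% higher: Lyz2 (log2 ratio 0.11), Ang (-0.21), Rnase4 (-0.44) and Pnliprp1 (-0.58). Of 22 other genes of Paneth cell biology 9 were 1.5-fold lower and 2 higher, with a median of -0.42, beside the 24.8% and 11.1% of all genes. The lower ones were led by the receptor tyrosine kinase Kit (14.7 and 4.36 CPM, -1.75), the growth factor Egf (-1.30) and the Notch ligand Dll4 (-1.09). Egf rested on 215 WT and 52 KO UMIs. In other kept cells Kit (18.2 and 4.66 CPM), Egf (1.40 and 0.446) and Dll4 (7.08 and 3.05) were lower in KO too. These declines were thus not particular to Paneth cells. The higher ones were the antibacterial lectins Reg3b (393 and 1482 CPM, 1.91) and Reg3g (1380 and 2324 CPM, 0.75). Both were also higher in KO among other kept cells, Reg3b at 2937 and 11703 CPM and Reg3g at 1557 and 5157 CPM. Their CPM there exceeded those in Paneth cells. For WT Reg3g (1557 against 1380 CPM) this order depends on the total used, since Defa UMIs lower the CPM of other genes in Paneth cells. How much of the Paneth values is free RNA from other kept cells was not tested.

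Among 18 genes of the secretory pathway, which fold and export such products, none was 1.5-fold lower, where 24.8% of all genes were, and 2 were higher, a share equal to the 11.1% of all genes. These were the signal peptidase subunit Spcs1 (82.6 and 140 CPM, 0.76) and Creld2 (0.72). The next in that direction was Manf (0.40), and the lowest were the chaperones Calr and Canx (both -0.53) and Herpud1 (-0.46). The median was -0.13, the same as that of the 10 members. Summed goblet markers in Paneth cells were 6162 CPM in WT and 4329 CPM in KO, beside 28202 and 16107 CPM in other kept cells, with all 7 present. Of these, 6 were lower in Paneth cells than in other kept cells. Ccl6 was higher, at 1172 against 544 CPM in WT and 1181 against 428 CPM in KO. Summed enterocyte markers were 1022 and 2260 CPM in Paneth cells, with all 10 present. The 8 immune markers summed to 148 and 248 CPM in Paneth cells, beside 891 and 1272 CPM in other kept cells. Nearly all of this was Cd74, at 148 and 247 CPM in Paneth cells. The T cell markers Cd3e and Cd3g were at or near 0 in both groups. The part of such transcripts in the levels of Mptx1, Mmp7, Itln1, Rnase1 and Nupr1 was not tested.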

How the data were processed

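Count matrices of UMIs per gene and cell barcode, 1 for WT and 1 for KO, were used as deposited. The submitters' processing notes name Cell Ranger 2.1.1 and build mm10, whereas the headers of both matrices name Cell Ranger 4.0.0. Which version made the counts, and which version of the droplet chemistry was used, could not be settled. The authors' methods give default parameters, barcodes filtered by Cell Ranger, at least 200 genes per cell, a limit of 30% mitochondrial UMIs and removal of doublets with DoubletFinder. The matrices still held all filtered barcodes, and no doublet caller was run here, so doublets remained, and 299 WT and 57 KO Paneth cells also passed another marker gate. Both limits on genes and mitochondrial UMIs were applied again. No column of unmapped samples was used (all cells of a matrix were read as 1 pooled group).

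UMIs were summed over the cells of a class and divided by their total (CPM), with exact Poisson intervals. Ratios have exact conditional binomial intervals and Clopper-Pearson intervals are given for cell shares, all exact and at 95%. PCR copies are collapsed by UMI, and intervals and floors cover counting error only. A floor is 3 counts of the total of a class. Called means at least 1.5-fold apart, among genes with at least 50 UMIs over both groups. Marker gates were set at 0.5% (tuft, cycling), 2% (goblet, enteroendocrine) and 5% (enterocyte) of a cell's UMIs. Thinned shares are expected values at 1000 UMIs, and correlations used a single draw of 5000 UMIs per cell. Gene positions come from the GRCm38 annotation, promoters from RefSeq GRCm38.p6. The scripts used Python 3.11.15, numpy 2.4.6, scipy 1.17.1, pandas 2.3.3, matplotlib 3.10.9 and Biopython 1.88 and were tested on simulated data. The genes named are the 10 members, the 3 genes most like each, and the 3 largest ratios in each direction of each list. The members, lists and limits were chosen with earlier results of these data known.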

Additional observations from a re-analysis of the deposited data

Results flagged for a closer look

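Among the members, 4 had log2 ratios of KO to WT of opposite sign in Paneth cells and in other kept cells, and the difference was not tested. They were Mptx1 (0.59 in Paneth cells, -0.96 in other kept cells), Mptx2 (0.027 and -0.43), Clps (-0.023 and 0.090) and Rnase1 (-0.52 and 0.19). The Paneth value of Mptx1 falls below 0 without 1 KO cell. The ratios of Mptx2 and Clps in Paneth cells were near 0, so their sign changes with several of the settings given in the next section.

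The members were also present in barcodes that entered no comparison. Together they made up 4.15% of the UMIs of WT barcodes with under 200 genes and 2.48% of those in KO, which has 21 such barcodes against 994. In barcodes over the mitochondrial limit the share was 3.10% in WT and 2.16% in KO. In Paneth cells it was 11.4% and 10.2%.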

How the results depend on the processing

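No paired analysis was possible because the columns of each matrix carry no replicate, and for the same reason no replicate could be left out. The median log2 ratio of the members (-0.13) was -0.17, -0.16 and -0.13 at Paneth limits of 10%, 30% and 40%, -0.20 without the deepest 10% of cells, -0.16 over UMIs that are not Defa, -0.26 without genes above 1% of UMIs, -0.27 as the mean of the cells' own CPM, -0.15 in thinned cells, -0.024 with the tuft-gate level taken off, -0.15 and -0.30 in the Defa21 and Defa23 divisions, and 0.46 as mean UMIs per cell. With choices made after seeing the data it was -0.20 without the top Mptx1 cells and -0.15, -0.30 and 0.0029 at 5000 to 20000, 20000 to 40000 and at least 40000 UMIs. The number of members 1.5-fold lower (0) was 1 at the 30% limit, in thinned cells, in the Defa21 division and at 20000 to 40000 UMIs, and 2 at the 40% limit, without genes above 1%, with the cells' own CPM and at 5000 to 20000 UMIs. The number higher (1) was 0 at limits of 10%, 30% and 40%, over UMIs that are not Defa, without genes above 1%, with the cells' own CPM, in thinned cells, in the Defa21 division, without the top Mptx1 cells, at 5000 to 20000 UMIs and at 2-fold, and 2 as mean UMIs per cell and at 20000 to 40000 UMIs. Mptx1 reversed to -0.36 and -0.83 at the 30% and 40% limits, -0.33 in the Defa21 division, -0.43 without the top cells and -1.45 at 5000 to 20000 UMIs. Ang4 and Itln1 stayed below 0 in all 21 settings on the CPM scale, while Rnase1 ran from -1.09 to 0.91, Mptx2 changed sign in 8, Mmp7 in 2 and Pnliprp2 in 1. The share of Paneth cells (37.4% WT, 22.4% KO) was 51.8% and 48.2% at a limit of 10%, 23.9% and 9.70% at 30%, 13.4% and 5.56% at 40%, 39.7% and 25.3% with 15% mitochondrial UMIs, 32.8% and 15.5% with no such limit, 33.8% and 19.6% from 500 genes, and 40.8% and 20.5% from 5000 UMIs. In WT, 2 members instead of 1 were 1.5-fold lower in the Defa23 division when a pair of defensins had to lead by 2 times. The cause of these shifts was not tested. Of the single values 90 moved within counting error, 185 moved further and 5 reversed. A value could count as reversed only where its main value was at least 1.5-fold. Among the KO to WT ratios this held for Mptx1 alone, so the sign changes of the other members are not in that count. Of the members Mptx1, with 254 and 229 UMIs, has the widest counting interval.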

Other observations

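Most near relatives of the members were scarce in these cells, with 7 of 11 under 50 UMIs over both groups of Paneth cells. Of the classes of kept cells, 8 members had their lowest level in the cycling gate of KO, namely Lyz1 (1773 CPM), Itln1 (1341), Mptx2 (390), Ang4 (320), Mmp7 (172), Clps (113), Nupr1 (30.4) and Pnliprp2 (26.7), in cells with 1.62% Defa UMIs, the lowest Defa share of any class.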
